A study of Mus musculus with 31 samples.

Results

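Endothelial induction was followed in 3 expandable hemangioblast (eHB) lines made from tissue: FL4 and FL10 came from fetal liver, and M5 came from embryonic fibroblasts. Hemangioblasts are precursors with both a blood and an endothelial fate. The libraries were chosen by their labels, as the day 3 endothelial culture and the eHB line of each of these 3 lines, which gives 6 of the 31 mouse RNA-seq libraries of the series. The cultures labelled endothelial (n = 3) had been kept for 3 days on Matrigel in N2B27 medium with 20 ng/mL VEGF, 20 ng/mL BMP4, 12.5 ng/mL FGF2, 4 µM SB431542 and 0.25 mM of 8-bromo-cyclic AMP, without doxycycline. The eHB cells (n = 3) were at passage 7 (M5) or passage 6 (FL4, FL10) on Matrigel in N2B27 medium with 12.5 ng/mL FGF2 and 2 µg/mL doxycycline. SB431542 blocks the type I receptors for TGF-beta, activin and nodal, and the cyclic AMP (cAMP) analogue activates protein kinase A. Loss of doxycycline, gain of 4 medium components and 3 days of culture therefore came together, and cannot be told apart. For comparison, 4 libraries from the pair of eHB lines RB4.6.9 and RB3.6.5, made from embryonic stem (ES) cells, were used: their endothelial cultures (n = 2) had the same medium for 3 days, and their eHB (n = 2), at passage 6 (RB3.6.5) or passage 5 (RB4.6.9), already had VEGF, BMP4, SB431542 and the cAMP analogue beside FGF2 and doxycycline. Per the labels, no library was sorted. Each line is 1 line with 1 library a stage, so the replicates are separate lines and the stages are paired by line. The libraries held 29990385 to 32641316 expected counts in the cultures and 22844070 to 31616406 in eHB.

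Endothelial cells line blood and lymph vessels. VEGF acts on them through the receptor tyrosine kinase encoded by Kdr, and transcription factors of the ETS and SoxF families hold their identity. In the embryo, Tal1, Lmo2 and Gata2 act together in a complex that specifies blood and endothelial progenitors, Sox17 is a SoxF factor of arterial and hemogenic endothelium, and Mycn drives growth. BMP ligands signal through type I and type II receptors to SMAD proteins, which switch on Id genes and the inhibitory SMADs. cAMP acts through protein kinase A on CREB, a factor that binds the motif TGACGTCA.

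Levels are the authors' TPM (transcript abundance on a fixed library total, corrected for transcript length), and 3 values in a row stand for M5, FL4 and FL10 in that order. Differences are log2 fold changes of the cultures over eHB with their standard error (SE), from edgeR's quasi-likelihood test on rounded counts and each line is a block in the model. Adjusted p-values are Benjamini-Hochberg values over the 12642 genes tested, and genes under an adjusted p of 0.05 are called higher or lower. By that rule 34.5% of all tested genes were higher in the cultures and 34.0% were lower, 68.6% in either direction, and the counts of called members below are read against these shares. The median log2 fold change over all tested genes was -0.01. Within-line differences in log2(TPM + 1) correlated across 10419 genes with r = 0.911 between M5 and FL4, 0.91 between M5 and FL10 and 0.964 between FL4 and FL10. These are correlations across genes, which are not independent replicates.

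The cell type named by the label was checked first. All 8 endothelial markers on the list used for this purpose (Cdh5, Pecam1, Kdr, Tie1, Tek, Esam, Cldn5, Emcn) were at 1 TPM or more in every culture. Of the same 8 markers, 5 were at 1 TPM or more in every eHB library as well. Their summed level was 6230 to 6351 TPM in the cultures, against 276.8 to 350.9 TPM in eHB. The 4 markers of hepatocytes summed to 0.228 to 0.7 TPM in the cultures and 0.399 to 0.954 TPM in eHB. In a longer hepatocyte list of 11 genes, 10 were under 1 TPM in all 6 libraries, but Apoa2 was higher in the cultures. It had 19.6, 12.8 and 12.1 TPM in the cultures, against 3.74, 2.91 and 2.16 TPM in eHB (log2 fold change 2.335 ± 0.30 SE, adjusted p = 0.00379). Markers of epithelium summed to 0.177 to 0.752 TPM in the cultures and 1.64 to 2.16 TPM in eHB. Of the smooth muscle and fibroblast markers, 6 of 8 were under 1 TPM in all 6 libraries, among them the collagen genes Col1a1, Col1a2 and Col3a1. Acta2 and Tagln made up most of that sum, which was 7.93 to 81.7 TPM in the cultures and 7.97 to 170.5 TPM in eHB. Leukocyte markers summed to 19.8 to 44.5 TPM in the cultures and 1.18 to 10.3 TPM in eHB, while Ptprc, which encodes CD45, stayed at 0.031 TPM or less in the cultures and 0.042 TPM or less in eHB. Neural markers summed to 5.85 to 18.6 TPM in the cultures and 24.3 to 142.8 TPM in eHB, and 3 of the 4 were under 1 TPM in all 6 libraries. A longer neural list of 11 genes went the other way, with 672, 267 and 262 TPM in the cultures, against 197, 185 and 122 TPM in eHB. Of its 4 tested genes 1 was higher and 0 lower. Red cell and platelet markers were high in the M5 culture, as described with the blood genes. In bulk libraries, fewer cells of a type and less RNA per cell cannot be told apart.

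The tables carry separate rows for the ectopic and the endogenous transcripts of the factors introduced into the lines. After doxycycline was withdrawn, the ectopic rows of Gata2, Lmo2, Mycn, Sox17 and Tal1 fell in all 3 lines. Ectopic Mycn was at 21.3, 3.96 and 7.8 TPM in the cultures, against 3767, 2186 and 3609 TPM in eHB (log2 fold change -8.45 ± 0.51 SE, adjusted p = 0.000951). Ectopic Tal1 was at 24.1, 140.3 and 37.1 TPM in the cultures, against 1295, 4233 and 1818 TPM in eHB (log2 fold change -5.42 ± 0.24 SE, adjusted p = 0.000792). For every one of the 5 ectopic rows the highest culture lay below the lowest eHB library, yet none reached 0 in any culture. The residue differed by line: ectopic Gata2 was at 18.3, 0.56 and 0.187 TPM in the cultures, against 1464, 657 and 211 TPM in eHB (log2 fold change -8.26 ± 1.08 SE, adjusted p = 0.00434). The M5 culture kept the most ectopic Gata2 and Mycn, the FL4 culture the most ectopic Tal1, and the FL10 culture the most ectopic Lmo2 (146 TPM, against 5301 TPM in FL10 eHB). Log2 fold changes were -6.60 ± 0.65 SE for ectopic Lmo2 (adjusted p = 0.00223) and -5.95 ± 0.28 SE for ectopic Sox17 (adjusted p = 0.000792).

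The endogenous rows did not move as a block. Endogenous Sox17 rose to 57.3, 296 and 92.3 TPM in the cultures, against 3.64, 0.938 and 0.403 TPM in eHB (log2 fold change 6.51 ± 1.14 SE, adjusted p = 0.00956). Endogenous Mycn rose as well, to 27.3, 52.3 and 32 TPM in the cultures, against 0, 0.675 and 0.286 TPM in eHB (log2 fold change 7.04 ± 0.72 SE, adjusted p = 0.00243). Both were higher in every culture than in any eHB library, opposite in direction to their ectopic rows. Endogenous Gata2 fell, with 30.4, 44.1 and 42.6 TPM in the cultures, against 74.8, 112 and 129 TPM in eHB (log2 fold change -1.41 ± 0.11 SE, adjusted p = 0.00125). Endogenous Tal1 fell too, with 71.3, 54.7 and 67.3 TPM in the cultures, against 98.7, 162 and 154 TPM in eHB (log2 fold change -1.02 ± 0.27 SE, adjusted p = 0.0313), but that call ended without FL4 (adjusted p = 0.0969) and without FL10 (0.118). Lmo2 had 147, 78.9 and 98.6 TPM in the cultures, against 58.6, 38.1 and 4.22 TPM in eHB, higher in all 3 cultures without passing the test (log2 fold change 2.21 ± 0.85 SE, adjusted p = 0.0808), and it passed without FL10 (1.22, adjusted p = 0.0171). Reads from the coding sequence fit both rows of a factor, so how RSEM divided them is uncertain.

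**Figure D1:**
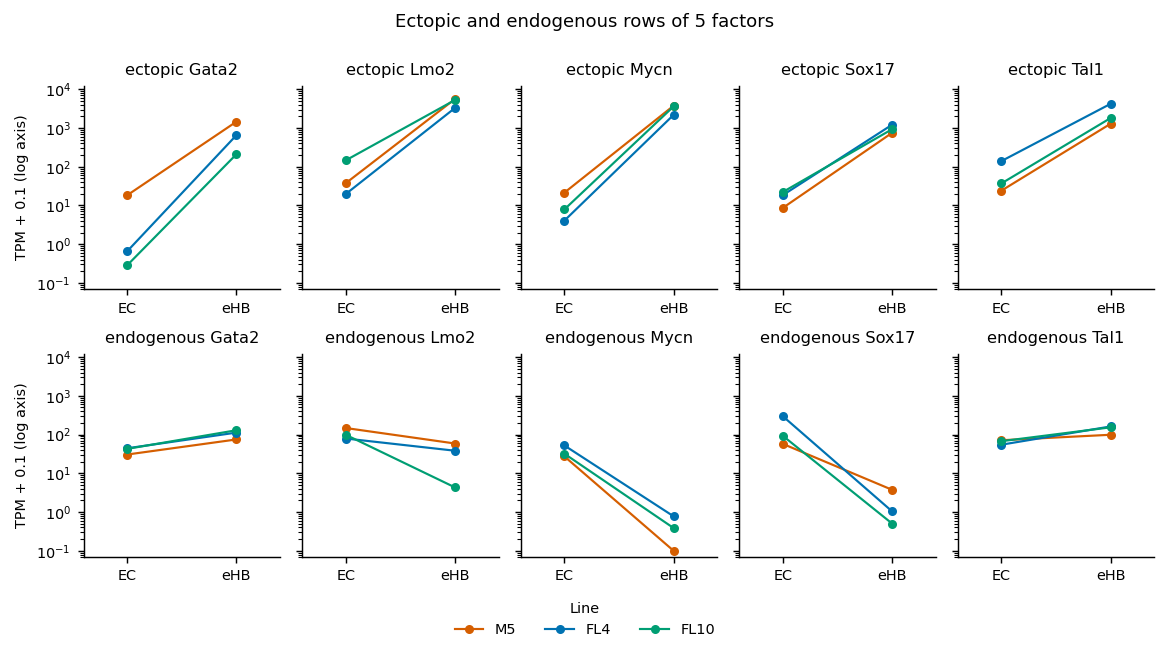
Each panel plots TPM + 0.1 on a log axis for 1 row of the tables, with the endothelial culture (EC) on the left and eHB on the right, and each line joins the 2 libraries of 1 cell line. The ectopic rows (top) are lower in every culture, while endogenous Mycn and Sox17 (bottom) are higher and endogenous Gata2 and Tal1 lower.

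Genes of endothelial identity rose broadly and by large factors. Of the 4 genes whose products the study used for sorting elsewhere, 3 rose, and Ptprc was too low to be tested. Cdh5, which encodes VE-cadherin of the endothelial adherens junction, had 3102, 2837 and 3031 TPM in the cultures, against 88.2, 30.6 and 60.1 TPM in eHB (log2 fold change 5.78 ± 0.37 SE, adjusted p = 0.00104). Pecam1, a junctional adhesion molecule, had 1752, 1661 and 1364 TPM in the cultures, against 85.3, 45.3 and 7.39 TPM in eHB (log2 fold change 5.65 ± 0.82 SE, adjusted p = 0.00568), and Kdr had 513, 711 and 785 TPM in the cultures, against 2.96, 36.2 and 45.1 TPM in eHB (log2 fold change 5.17 ± 0.91 SE, adjusted p = 0.00967). The 3 cultures were close to each other for these genes, and the eHB libraries were spread: FL10 was lowest for Pecam1 and M5 lowest for Kdr.

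Of the 20 endothelial receptor genes, all tested, 18 were higher and 0 lower, with a median log2 fold change of 4.95. The largest called rises were in Robo4, a receptor that stabilises vessels, in Flt4, the receptor for VEGF-C, in the orphan receptor Eltd1, in Nrp1, a co-receptor for VEGF and semaphorins, and in Ptprb, a phosphatase that acts on Tie2 and VE-cadherin. Robo4 had 504, 426 and 337 TPM in the cultures, against 0.126, 0.116 and 0.032 TPM in eHB (log2 fold change 12.16 ± 0.27 SE, adjusted p = 0.000782). Flt4 (ENSMUSG00000020357, chromosome 11, 49609263 to 49652739, plus strand on GRCm38) had 341, 305 and 392 TPM in the cultures, against 0.137, 0.105 and 0.191 TPM in eHB (log2 fold change 11.26 ± 0.18 SE, adjusted p = 0.000782). The eHB libraries held almost no transcript of either gene, in contrast to Kdr. Nrp1 rose by 8.18 ± 0.56 SE on the log2 scale (adjusted p = 0.00115), Eltd1 by 8.32 ± 0.53 SE (0.000968) and Ptprb by 7.93 ± 0.32 SE (0.000792).

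Junction and surface genes behaved alike: 23 of 25 were tested, 20 were higher and 1 lower, and the median log2 fold change was 6.88, or 6.19 with genes absent from eHB set at their lower bound. Emcn, a sialomucin of venous and capillary endothelium, was listed at 0 in all 3 eHB lines and had 24.4, 64.5 and 65.9 TPM in the cultures, which makes it at least 896-fold higher against a floor of 3 counts over the eHB group. Cd93, a receptor of endothelial cells that binds the matrix protein Mmrn2, had 299.6, 271 and 242 TPM in the cultures, against 0.168, 0.2 and 0.18 TPM in eHB (log2 fold change 10.52 ± 0.18 SE, adjusted p = 0.000782). The cultures lay above eHB for both genes, by margins far larger than the spread between lines. For 3 further genes eHB held only 1 to 3 counts, so no fold is given. Mmrn1, a multimerin, had 31.9, 11.4 and 6.76 TPM in the cultures and at most 0.011 TPM in eHB (adjusted p = 0.000928). Tm4sf1, a tetraspanin-like protein, had 72.7, 35.5 and 65.9 TPM in the cultures and at most 0.053 TPM in eHB (adjusted p = 0.000792). Sele, which encodes E-selectin, had 15.1, 13 and 31.5 TPM in the cultures and at most 0.032 TPM in eHB (adjusted p = 0.000969). The exception was Podxl, a sialomucin of endothelium and early blood progenitors, which fell, with 57.3, 28.5 and 35.8 TPM in the cultures, against 148, 112 and 149.6 TPM in eHB (log2 fold change -1.79 ± 0.19 SE, adjusted p = 0.00242).

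Vwf, the platelet-binding protein that endothelial cells and megakaryocytes store, went its own way in each line. It had 58.3, 2.63 and 0.187 TPM in the cultures, against 1.55, 8.2 and 8.05 TPM in eHB, so M5 was higher in the culture while FL4 and FL10 were lower, and no common change was called (log2 fold change -1.17 ± 2.75 SE, adjusted p = 0.725). Among the genes that averaged at least 20 TPM in one of the stages, Vwf had one of the 6 largest spreads of the within-line difference (SD 3.94 in log2(TPM + 1), n = 3 lines).

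**Figure D2:**
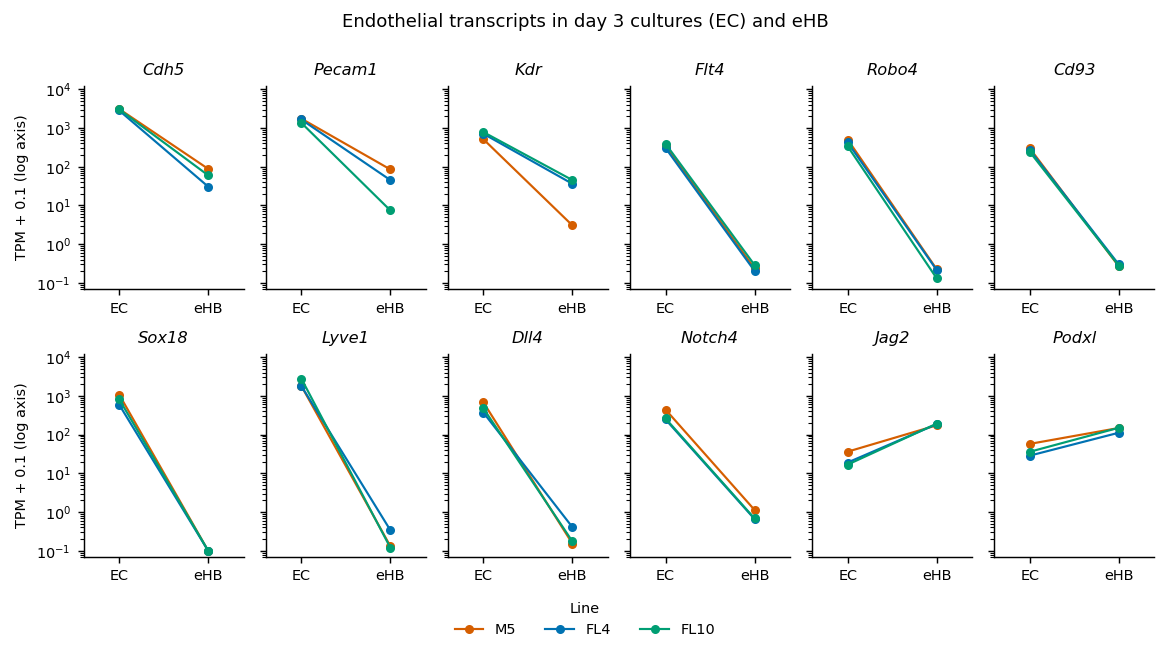
Each panel plots TPM + 0.1 on a log axis for 1 gene, culture (EC) on the left and eHB on the right, with 1 line for each cell line. Sox18, Flt4, Robo4, Cd93, Lyve1, Dll4 and Notch4 lie near the bottom of the axis in eHB and between 242 and 2802 TPM in the cultures, while Jag2 and Podxl are lower in the cultures.

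Of the endothelial transcription factors 21 of 25 were tested, 14 were higher, 1 was lower, and the median was 2.81. Sox18, a SoxF factor that acts in vessel and lymphatic development (ENSMUSG00000046470, chromosome 2, 181669836 to 181671640, minus strand on GRCm38), had 1077, 594 and 817 TPM in the cultures and no count in any eHB library, at least 15490-fold higher. Epas1, which encodes HIF-2 alpha, had 114, 128 and 154 TPM in the cultures, against 1.8, 1.07 and 1.26 TPM in eHB (log2 fold change 6.61 ± 0.28 SE, adjusted p = 0.000792). Bcl6b, a repressor found in endothelium, had 8.7, 155 and 99.8 TPM in the cultures, against 0.274, 4.42 and 1.04 TPM in eHB (log2 fold change 5.64 ± 0.42 SE, adjusted p = 0.00129). The groups did not overlap for these 3 genes, but Bcl6b was far lower in M5 than in FL4 and FL10 at both stages.

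Other factors of this list rose unevenly. The ETS factor Erg had 283, 52.9 and 61.4 TPM in the cultures, against 27.6, 0.221 and 0.646 TPM in eHB (log2 fold change 5.57 ± 1.06 SE, adjusted p = 0.0118), and its call ended without FL10 (adjusted p = 0.0563) and without the line block (0.112). Sox7, the other SoxF gene of the list, had 0.209, 6.96 and 67 TPM in the cultures, against 0.116, 0.496 and 0.858 TPM in eHB, with FL10 highest and M5 near the level of eHB (log2 fold change 4.64 ± 1.08 SE, adjusted p = 0.0207). That call ended without FL4 (adjusted p = 0.0704) and without FL10 (0.111). Tcf15, a partner of Meox2 in endothelium, was the 1 factor of the list that fell, with 0.157, 0.477 and 0.146 TPM in the cultures, against 5.94, 67.4 and 34.2 TPM in eHB (log2 fold change -6.93 ± 0.53 SE, adjusted p = 0.0013). Etv2, which starts the endothelial programme in the embryo, was too low to be tested, with 0.303, 0 and 0.135 TPM in the cultures, against 0.748, 0.39 and 0.244 TPM in eHB.

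Most arterial genes rose. Of 13 arterial genes, all tested, 10 were higher and 0 lower (median 4.07), led by the Notch ligand gene Dll4, by Cxcr4, the receptor for the chemokine CXCL12, by Nrp1, by the BMP9 receptor gene Acvrl1 and by Sox17. Dll4 had 676, 369.7 and 475 TPM in the cultures, against 0.053, 0.306 and 0.074 TPM in eHB (log2 fold change 11.70 ± 0.74 SE, adjusted p = 0.00103). Cxcr4 had 276, 144 and 161 TPM in the cultures, against 0.053, 0.58 and 0.583 TPM in eHB (log2 fold change 8.73 ± 0.71 SE, adjusted p = 0.00153). Both were close to absent in eHB. Gja4, which encodes the arterial gap junction protein connexin 37, had 12.2, 37 and 34.2 TPM in the cultures, against 9.72, 43.9 and 15.3 TPM in eHB and did not pass (log2 fold change 0.42 ± 0.32 SE, adjusted p = 0.296).

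In the Notch pathway 18 of 19 genes were tested, 7 were higher and 5 lower, shares near the background. The direction differed between receptors and between ligands. Notch4, the endothelial receptor, had 441, 246 and 260 TPM in the cultures, against 1.03, 0.559 and 0.583 TPM in eHB (log2 fold change 8.78 ± 0.13 SE, adjusted p = 0.000782), and Notch1 rose by 1.54 ± 0.27 SE (adjusted p = 0.00994). Among the ligands Jag2 fell, with 36.1, 18.9 and 16.7 TPM in the cultures, against 173, 186 and 191 TPM in eHB (log2 fold change -3.02 ± 0.32 SE, adjusted p = 0.00254), while Dll4 rose. Target genes split as well: Nrarp, a feedback inhibitor, had 627, 606 and 576 TPM in the cultures, against 4.05, 9.35 and 0.858 TPM in eHB (log2 fold change 7.43 ± 0.86 SE, adjusted p = 0.00317), Hey1 rose by 4.07 ± 0.18 SE (adjusted p = 0.000792), and Heyl fell (log2 fold change -4.22 ± 0.75 SE, adjusted p = 0.00948; adjusted p = 0.0529 without the line block). Rbpj, the DNA-binding partner of all Notch receptors, had 23.8, 29.4 and 28.5 TPM in the cultures, against 27.3, 31.9 and 33.2 TPM in eHB and was not called (log2 fold change -0.17 ± 0.09 SE, adjusted p = 0.145).

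Genes of venous, lymphatic and sinusoidal endothelium were represented by a few very abundant transcripts. Of 15 genes 11 were tested, 6 were higher and 1 lower (median 4.19). Lyve1, a hyaluronan receptor of lymphatic, sinusoidal and early embryonic endothelium (ENSMUSG00000030787, chromosome 7, 110850607 to 110863239, minus strand on GRCm38), had 1817, 1803 and 2802 TPM in the cultures, against 0.032, 0.242 and 0.021 TPM in eHB (log2 fold change 14.29 ± 0.75 SE, adjusted p = 0.000832). Stab2, a scavenger receptor of sinusoids, had 191, 273 and 320.3 TPM in the cultures, against 0.011, 0.105 and 0.042 TPM in eHB (log2 fold change 12.25 ± 0.50 SE, adjusted p = 0.000792). Aplnr, the apelin receptor, rose by 4.73 ± 0.52 SE (adjusted p = 0.00279), and Stab1 by 4.19 ± 0.86 SE (adjusted p = 0.0149, and 0.0501 without FL4). Reln, made by lymphatic endothelium, was lower in each line, with 11.7, 0.269 and 2.51 TPM in the cultures, against 25.2, 2.88 and 9.07 TPM in eHB (log2 fold change -2.01 ± 0.49 SE, adjusted p = 0.0245), a call that ended without FL10 (adjusted p = 0.0814) and without the line block (0.411).

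Regulators of venous and lymphatic fate were less clear. Nr2f2, which specifies venous identity, had 2.28, 1.06 and 6.12 TPM in the cultures, against 9.02, 0 and 0.021 TPM in eHB and was not called (log2 fold change 3.57 ± 2.84 SE, adjusted p = 0.311): it was higher in the FL4 and FL10 cultures and lower in the M5 culture. Without M5 it was called higher (8.01, adjusted p = 0.00267). Pdpn, a marker of lymphatic endothelium, was too low to be tested in these lines.

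**Figure D3:**
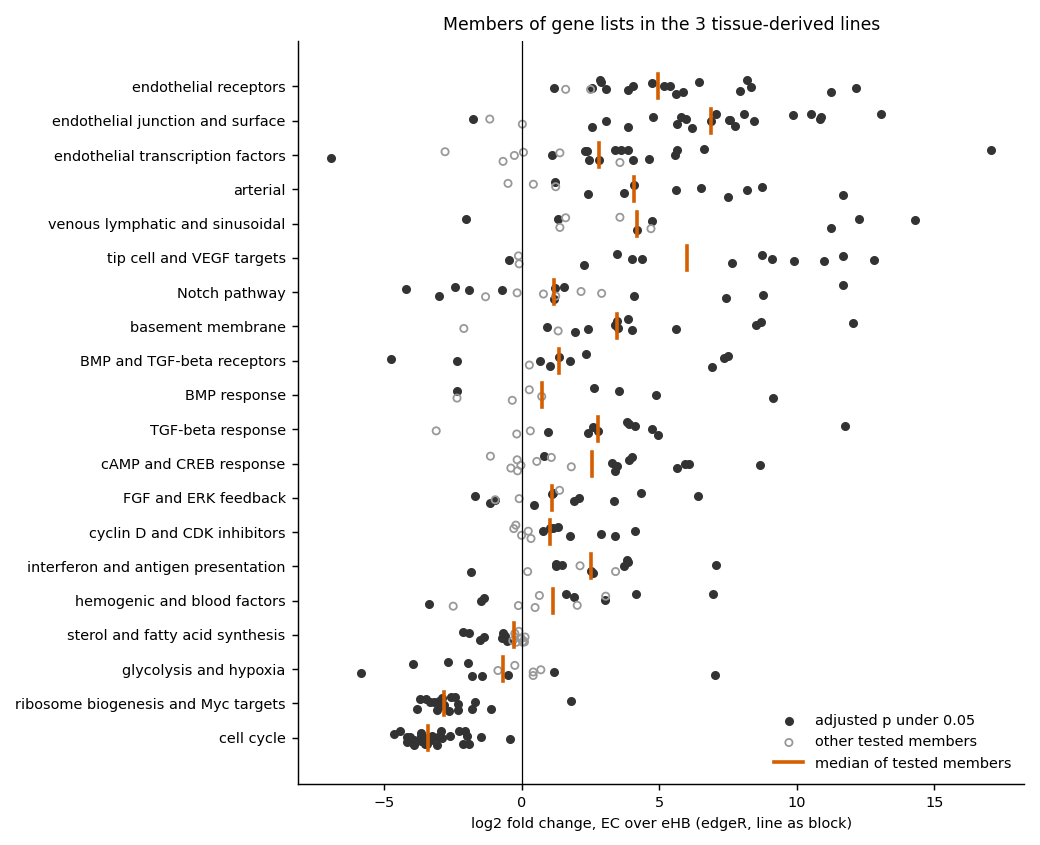
Each point is 1 tested member of a gene list, placed by its log2 fold change in the cultures over eHB (n = 3 lines), with filled points for adjusted p under 0.05 and an orange bar at the median of tested members. The endothelial lists lie right of 0 apart from a few members, and the cell cycle and ribosome biogenesis lists lie left of it apart from Odc1.

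Genes that respond to VEGF and mark sprouting tip cells were among those that rose furthest. Of 15 such genes 14 were tested, 11 were higher and 1 lower (median 6.02). Apln, the ligand of the apelin receptor, had 5423, 2548 and 2263 TPM in the cultures, against 0.969, 3.5 and 7.05 TPM in eHB (log2 fold change 9.91 ± 1.18 SE, adjusted p = 0.00341). Esm1, a secreted proteoglycan of tip cells, had 138, 462 and 471 TPM in the cultures, against 0.042, 0.063 and 0.032 TPM in eHB (log2 fold change 12.80 ± 0.28 SE, adjusted p = 0.000782). Igfbp3, an insulin-like growth factor binding protein, had 348, 2899 and 3324 TPM in the cultures, against 0.074, 2.26 and 1.22 TPM in eHB (log2 fold change 10.99 ± 0.44 SE, adjusted p = 0.000792). No culture overlapped with eHB for these 3 genes, though Apln was highest in M5 and the other two were lowest there. The vasodilator peptide gene Adm also rose (9.08 ± 0.91 SE, adjusted p = 0.00229), with 3.18, 272 and 53.2 TPM in the cultures, against 0.063, 0.095 and 0.254 TPM in eHB.

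Feedback genes of FGF and ERK signalling did not move together, in cells that had 12.5 ng/mL FGF2 at both stages. All 14 were tested, 8 were higher and 3 lower (median 1.11). The ERK phosphatase genes Dusp5 and Dusp6 rose: Dusp6 had 252, 347 and 344 TPM in the cultures, against 5.67, 23.7 and 25.4 TPM in eHB (log2 fold change 4.34 ± 0.46 SE, adjusted p = 0.00258), and Dusp5 rose by 6.42 ± 0.55 SE (adjusted p = 0.00164). Spry4, an inhibitor of receptor tyrosine kinase signalling, had 111, 100.5 and 106 TPM in the cultures, against 9.18, 12.3 and 9.62 TPM in eHB (log2 fold change 3.37 ± 0.16 SE, adjusted p = 0.000792). Phlda1 (2.06, adjusted p = 0.00135) and Spry1 (1.89, adjusted p = 0.00806) also rose. The ETS factor Etv4, a target of FGF signalling, fell within each line, with 5.57, 39.5 and 39 TPM in the cultures, against 33.1, 103 and 92.2 TPM in eHB (log2 fold change -1.70 ± 0.31 SE, adjusted p = 0.0107; adjusted p = 0.155 without the line block).

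Receptors of the BMP and TGF-beta family changed in composition. Of 13 genes 11 were tested, 8 were higher and 2 lower (median 1.36). Eng, the co-receptor endoglin, had 247, 226 and 129.7 TPM in the cultures, against 2.5, 0.949 and 0.646 TPM in eHB (log2 fold change 7.36 ± 0.35 SE, adjusted p = 0.000792). Tgfbr2, the type II receptor for TGF-beta, had 308, 527 and 355 TPM in the cultures, against 0.695, 5.33 and 6.68 TPM in eHB (log2 fold change 6.91 ± 0.79 SE, adjusted p = 0.00306), and Bmpr2, a type II BMP receptor, rose by 2.35 ± 0.09 SE (adjusted p = 0.000792). The type I receptor genes went opposite ways. Acvrl1, the endothelial type I receptor for BMP9 and BMP10, had 317, 224 and 172 TPM in the cultures, against 21.7, 0.306 and 0.138 TPM in eHB (log2 fold change 7.51 ± 1.75 SE, adjusted p = 0.0211; adjusted p = 0.0774 without FL4, 0.0714 without FL10 and 0.0535 without the line block). Bmpr1a, a type I receptor for BMP4, fell, with 0.073, 1.41 and 2 TPM in the cultures, against 10.6, 27.8 and 33 TPM in eHB (log2 fold change -4.77 ± 0.64 SE, adjusted p = 0.0047), and the type II receptor gene Acvr2b fell (log2 fold change -2.37 ± 0.17 SE, adjusted p = 0.00112).

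BMP4 was absent from the eHB medium of these lines and present in the culture medium, 1 of several changes that came together. Of 16 genes of the BMP response list only 9 were expressed enough to be tested. Of these 4 were higher and 1 lower (median 0.72), a share of higher genes not far from the 34.5% of all tested genes. Id3, a dominant negative helix-loop-helix protein and direct BMP target (ENSMUSG00000007872, chromosome 4, 136143497 to 136145755, plus strand on GRCm38), had 32.1, 152 and 172 TPM in the cultures, against 0.347, 0.105 and 0.148 TPM in eHB (log2 fold change 9.12 ± 0.77 SE, adjusted p = 0.00159). Id1, its relative, had 12.7, 43.7 and 76.7 TPM in the cultures, against 4.63, 1.88 and 3.52 TPM in eHB (log2 fold change 3.54 ± 0.81 SE, adjusted p = 0.0203), and Smad6, an inhibitory SMAD, had 1.44, 18.5 and 19.7 TPM in the cultures, against 0.337, 0.411 and 0.201 TPM in eHB (log2 fold change 4.90 ± 1.06 SE, adjusted p = 0.0171). All 3 were lowest in the M5 culture, and no culture overlapped with eHB. The calls of Id1 and Smad6 ended without FL4 (adjusted p = 0.083 and 0.0907) and without FL10 (0.0935 and 0.0677). Bambi, a decoy receptor, rose by 2.64 ± 0.35 SE (adjusted p = 0.00448). Id4 fell (log2 fold change -2.34 ± 0.64 SE, adjusted p = 0.0333; adjusted p = 0.079 without FL4 and 0.064 without FL10).

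In the ES-derived lines BMP4 was present at both stages, and their cultures differed from eHB by the withdrawal of doxycycline and 3 days. Of the BMP response list 14 genes were tested there, 1 was higher and 5 were lower, with 28.3% of 13179 genes tested higher and 28.3% lower in those lines. Between the tissue-derived and the ES-derived lines, origin and eHB medium cannot be told apart. Id3 was at 123 and 142 TPM in their cultures and 112 and 162 TPM in their eHB, without a called change (0.10 ± 0.14 SE, adjusted p = 0.583). Smad6 fell in them, at 6.51 and 10.1 TPM in the cultures, against 42.9 and 48.9 TPM in eHB (-2.38 ± 0.19 SE, adjusted p = 0.00916). In a model over all 10 libraries, an interaction term asked whether the change in the tissue-derived lines differed from that in the ES-derived lines, and called 0.00727% of 13761 genes. None of the 15 BMP response genes tested for interaction passed. Their median interaction log2 fold change was 3.04, and 9 had an unadjusted interaction p under 0.05, against 17.6% of all genes tested. The interaction log2 fold change was 9.12 ± 0.82 SE (adjusted p = 0.0972) for Id3. For Smad6 it was 7.39 ± 1.25 SE (adjusted p = 0.131), and for Id1 it was 4.14 ± 1.04 SE (adjusted p = 0.178). Without M5 the Id3 interaction passed (10.17, adjusted p = 0.0169). Smad7, the other inhibitory SMAD gene, had 2.82, 2.73 and 3.09 TPM in the cultures, against 5.57, 3.79 and 2.33 TPM in eHB in the tissue-derived lines and was not called (log2 fold change -0.35 ± 0.34 SE, adjusted p = 0.413), and it fell in the ES-derived lines, with 0.599 and 1.17 TPM in the cultures, against 9.32 and 9.4 TPM in eHB (-3.34 ± 0.39 SE, adjusted p = 0.0135).

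Most tested genes of the TGF-beta response rose, in a culture medium that held SB431542. Of 16 genes 13 were tested, 10 were higher and 0 lower (median 2.76). Ctgf, a matricellular protein that is also a target of YAP, had 671, 519 and 399 TPM in the cultures, against 0.042, 0.179 and 0.191 TPM in eHB (log2 fold change 11.76 ± 0.49 SE, adjusted p = 0.000792). Cdkn2b, an inhibitor of CDK4 and CDK6, had 173, 97 and 185 TPM in the cultures, against 8.62, 9.45 and 7.19 TPM in eHB (log2 fold change 4.13 ± 0.33 SE, adjusted p = 0.00148). Nedd9 (4.73, adjusted p = 0.000866) and Ltbp2 (3.89, adjusted p = 0.00294) rose as well. The ES-derived lines, whose eHB were kept in the inhibitor too, had 496 and 519.8 TPM of Ctgf in their cultures, against 0.271 and 0.342 TPM in eHB (10.82 ± 0.21 SE, adjusted p = 0.00793).

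Of 20 genes of the cAMP and CREB response 18 were tested, 10 were higher and 0 lower (median 2.55). Crem, which encodes CREB-related activators and the repressor ICER, was very even across lines, with 89.2, 91 and 89.9 TPM in the cultures, against 5.21, 6 and 5.25 TPM in eHB (log2 fold change 4.00 ± 0.12 SE, adjusted p = 0.000789). Dusp1, a MAP kinase phosphatase, had 490.4, 393 and 408 TPM in the cultures, against 6.38, 6.7 and 5.79 TPM in eHB (log2 fold change 6.10 ± 0.15 SE, adjusted p = 0.000782), and the cAMP phosphodiesterase gene Pde4b had 121, 519.9 and 489 TPM in the cultures, against 0, 0.959 and 2.48 TPM in eHB (log2 fold change 8.68 ± 0.86 SE, adjusted p = 0.00226). Pde10a (5.94, adjusted p = 0.00389) and Gem, a small GTPase (5.64, adjusted p = 0.00245), completed the 5 largest rises. Fos and Nr4a3 were named after their values were seen. Fos had 20.2, 65.5 and 34.6 TPM in the cultures, against 3.45, 3.75 and 2.77 TPM in eHB (log2 fold change 3.46 ± 0.37 SE, adjusted p = 0.00274), and the nuclear receptor gene Nr4a3 had 6.4, 3.99 and 4.04 TPM in the cultures, against 0.326, 0.337 and 0.286 TPM in eHB (log2 fold change 3.88 ± 0.28 SE, adjusted p = 0.00117). Its relative Nr4a1 had 20.2, 40.1 and 47.9 TPM in the cultures, against 49.9, 45.9 and 40.2 TPM in eHB and was not called (log2 fold change -0.40 ± 0.34 SE, adjusted p = 0.347).

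The promoters of 4 of these genes are shown because Dusp1, Fos and Nr4a3 rose and Nr4a1 did not pass the test, and all hold TGACG, the first 5 bases of the CREB motif, or its reverse complement. The sequences are the 250 bases before the RefSeq start site (GRCm38.p6), 5′ to 3′ on the strand of the gene, and capitals mark TGACG, its reverse complement CGTCA, and the full motif TGACGTCA, which contains both. Dusp1 is at chr17:26508473-26508722, minus strand, Fos at chr12:85473640-85473889, plus strand, Nr4a3 at chr4:48045055-48045304, plus strand and Nr4a1 at chr15:101266596-101266845, plus strand.
Dusp1: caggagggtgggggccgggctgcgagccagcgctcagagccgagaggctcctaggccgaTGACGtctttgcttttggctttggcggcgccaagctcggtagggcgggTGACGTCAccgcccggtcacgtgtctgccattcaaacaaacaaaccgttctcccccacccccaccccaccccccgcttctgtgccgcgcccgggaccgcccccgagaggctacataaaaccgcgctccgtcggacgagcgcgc
Fos: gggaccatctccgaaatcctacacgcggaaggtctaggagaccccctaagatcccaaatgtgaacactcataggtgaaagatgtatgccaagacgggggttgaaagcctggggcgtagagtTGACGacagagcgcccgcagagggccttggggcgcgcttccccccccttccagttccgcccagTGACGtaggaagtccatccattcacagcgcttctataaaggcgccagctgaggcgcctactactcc
Nr4a3: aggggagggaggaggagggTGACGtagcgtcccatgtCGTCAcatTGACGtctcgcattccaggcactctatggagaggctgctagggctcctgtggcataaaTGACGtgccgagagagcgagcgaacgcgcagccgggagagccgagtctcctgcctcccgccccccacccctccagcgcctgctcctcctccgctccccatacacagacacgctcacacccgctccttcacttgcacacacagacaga
Nr4a1: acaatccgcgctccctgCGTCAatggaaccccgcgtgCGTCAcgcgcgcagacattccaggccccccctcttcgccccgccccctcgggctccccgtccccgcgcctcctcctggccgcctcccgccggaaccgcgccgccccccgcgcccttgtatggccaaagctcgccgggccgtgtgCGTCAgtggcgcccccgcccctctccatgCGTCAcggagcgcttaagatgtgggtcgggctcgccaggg
The full motif was found in 2 of the 16 listed genes that matched a window by symbol. These were Dusp1 and the growth factor gene Areg, which was too low to be tested. It was found in 1.55% of all 32851 promoter windows of this length, and in 1.77% of the 27025 genes with a window. TGACG or CGTCA occurred 3 times in Dusp1, 2 times in Fos, 4 times in Nr4a3 and 4 times in Nr4a1, and at least once in 17.8% of all windows. Of these 16 of 20 listed genes 12 held TGACG or CGTCA, including 5 of the 7 matched genes that rose, against 19.8% of all genes with a window. The list is made of cAMP and CREB response genes, so this share is no result about these libraries. Pde10a, which rose, held neither, and Crem matched no window. In Nr4a1 all 4 were CGTCA on the strand shown. A match is a description of the letters and does not show binding.

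In the ES-derived lines, whose eHB already had the analogue, 9 of the 18 tested genes of the cAMP list were higher and 1 was lower. Crem was at 105 and 103 TPM in their cultures, against 6.98 and 5.75 TPM in eHB (4.12 ± 0.18 SE, adjusted p = 0.00797), and Dusp1 at 329.9 and 361 TPM in the cultures, against 8.78 and 8.35 TPM in eHB (5.46 ± 0.15 SE, adjusted p = 0.00793). Both rose in these lines, in which the analogue was present at both stages. The interaction was not called for either (adjusted p = 0.859 for Crem and 0.181 for Dusp1), which does not show an equal response. The part of the analogue in these changes was not tested. Nr4a3 was at 1.91 and 1.34 TPM in the ES-derived cultures and 0.632 and 2.43 TPM in their eHB, with no called change (0.47 ± 0.82 SE, adjusted p = 0.651) and no called interaction (adjusted p = 0.173).

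**Figure D4:**
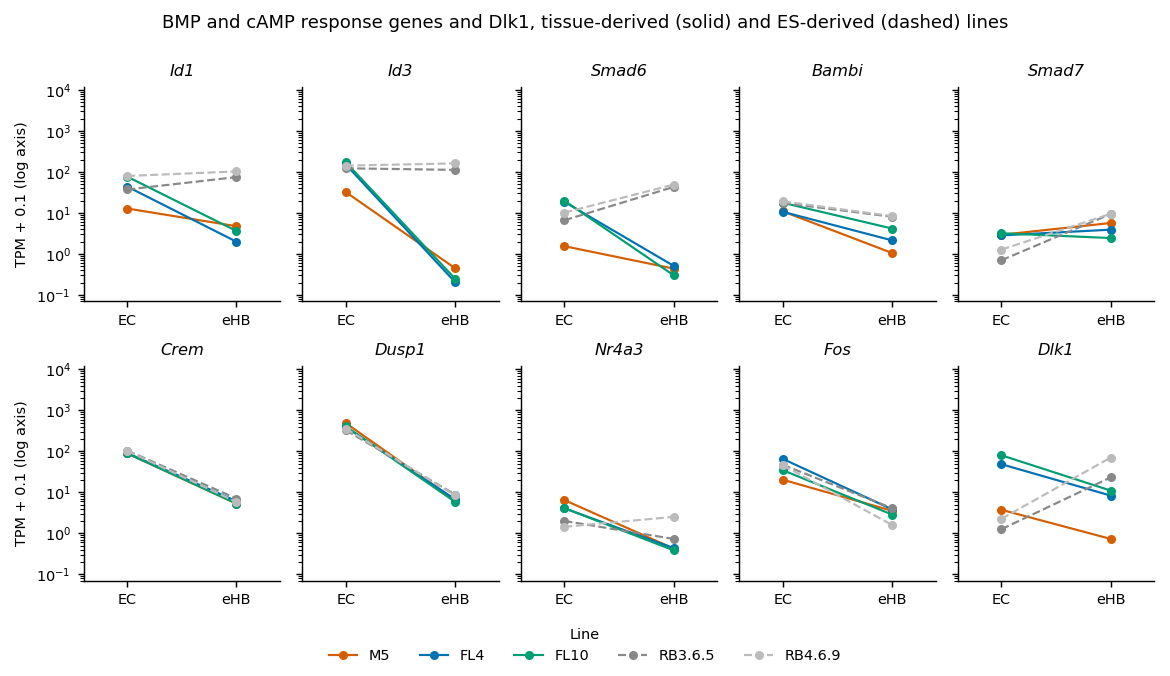
Each panel plots TPM + 0.1 on a log axis for 1 gene, culture (EC) on the left and eHB on the right, for the tissue-derived lines (solid) and the ES-derived lines (dashed). Crem and Dusp1 slope alike in all 5 lines, while Id3 and Smad6 in eHB lie at 0.411 TPM or less in the tissue-derived lines and at 42.9 TPM or more in the ES-derived lines, and Dlk1 slopes in opposite directions.

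Genes of the cell division machinery fell. All 30 cell cycle genes were tested, all 30 were lower (largest adjusted p 0.0454), and the median was -3.41. Ccnb1, the mitotic cyclin B1 (ENSMUSG00000041431, chromosome 13, 100778650 to 100786570, minus strand on GRCm38), had 4.9, 19.1 and 11.9 TPM in the cultures, against 230.2, 227 and 231 TPM in eHB (log2 fold change -4.43 ± 0.46 SE, adjusted p = 0.00254). Ccne1, the cyclin of S phase entry, had 3.74, 8.54 and 4.3 TPM in the cultures, against 146, 136 and 111 TPM in eHB (log2 fold change -4.63 ± 0.31 SE, adjusted p = 0.00111), and Rrm2, which makes DNA precursors, had 14.3, 30.9 and 18.6 TPM in the cultures, against 295, 420 and 404 TPM in eHB (log2 fold change -4.18 ± 0.19 SE, adjusted p = 0.000792). Within the cultures FL4 was the highest and M5 the lowest for each of these 3 genes. The spindle checkpoint kinase gene Bub1 (-4.17, adjusted p = 0.00455) and Aurkb (-4.05, adjusted p = 0.00457) completed the 5 largest falls.

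Of 13 genes of D cyclins, CDK inhibitors and related brakes, all tested, 8 were higher and 0 lower (median 1.02). Cdkn2b, described with the TGF-beta response, had the largest rise of this list. Ccng2, a cyclin of arrested cells, had 54, 65.8 and 77 TPM in the cultures, against 5.06, 8.9 and 5.2 TPM in eHB (log2 fold change 3.40 ± 0.25 SE, adjusted p = 0.00125). The D cyclin genes Ccnd3 (1132, 1044 and 1113 TPM in the cultures, against 140.2, 176 and 141 TPM in eHB; log2 fold change 2.87 ± 0.15 SE, adjusted p = 0.000808) and Ccnd1 (1.76 ± 0.35 SE, adjusted p = 0.0133) rose as the S and M phase cyclins fell.

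Ribosome biogenesis genes and related Myc targets fell nearly as uniformly. All 20 were tested, 19 were lower and 1 higher (median -2.84), while the ectopic row of Mycn fell and its endogenous row rose. Cad, the enzyme that starts pyrimidine synthesis, had 26.8, 31.3 and 32.6 TPM in the cultures, against 433, 449.9 and 389 TPM in eHB (log2 fold change -3.81 ± 0.14 SE, adjusted p = 0.000792). Dkc1, which modifies ribosomal RNA, had 11.1, 21.6 and 19.1 TPM in the cultures, against 228, 200.5 and 223 TPM in eHB (log2 fold change -3.69 ± 0.28 SE, adjusted p = 0.0013). Nolc1 (-3.48, adjusted p = 0.00115), Polr1b, a subunit of RNA polymerase I (-3.35, adjusted p = 0.000792), and Wdr12 (-3.18, adjusted p = 0.000789) followed. The exception was Odc1, the ornithine decarboxylase of polyamine synthesis, which rose, with 1489, 3777 and 3378 TPM in the cultures, against 876, 728 and 754 TPM in eHB (log2 fold change 1.79 ± 0.38 SE, adjusted p = 0.0165; adjusted p = 0.0704 without FL4 and 0.0832 without FL10).

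Among 14 tested genes of glycolysis and hypoxia, 7 were lower and 2 higher (median -0.69). Hk2, the inducible hexokinase, had 0.596, 2.68 and 1.9 TPM in the cultures, against 83.7, 85.2 and 98.8 TPM in eHB (log2 fold change -5.85 ± 0.51 SE, adjusted p = 0.00174), and Eno1, an enolase, had 434, 543 and 414 TPM in the cultures, against 3255, 2579 and 3044 TPM in eHB (log2 fold change -2.67 ± 0.19 SE, adjusted p = 0.00116). Vegfa, the ligand that was added as protein to the culture medium, had 1.89, 1.97 and 2.48 TPM in the cultures, against 26.6, 31.4 and 36.2 TPM in eHB (log2 fold change -3.98 ± 0.13 SE, adjusted p = 0.000789). Ldha (-1.97, adjusted p = 0.00129) and Bnip3 (-1.82, adjusted p = 0.00346) fell as well. Ndrg1, a hypoxia and stress gene, rose, with 432, 192 and 221 TPM in the cultures, against 2.8, 1.73 and 1.73 TPM in eHB (log2 fold change 7.03 ± 0.17 SE, adjusted p = 0.000782). In the sterol and fatty acid list, 8 of 18 tested genes were lower and 0 higher (median -0.29), a share nearer the background. The fatty acid synthesis genes Acaca (15.8, 17.4 and 11.9 TPM in the cultures, against 61.3, 63.5 and 71.7 TPM in eHB; log2 fold change -2.13 ± 0.19 SE, adjusted p = 0.0018) and Fasn (-1.51, adjusted p = 0.00257) and the sterol gene Lss (-1.91, adjusted p = 0.00111) were among them.

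Matrix and vessel function genes rose. Of 14 basement membrane genes, all tested, 12 were higher and 0 lower (median 3.48). Col18a1, the source of endostatin, had 213, 914 and 1296 TPM in the cultures, against 3.57, 26.2 and 22.9 TPM in eHB (log2 fold change 5.62 ± 0.24 SE, adjusted p = 0.000792), and Nid2 rose by 4.00 ± 0.53 SE (adjusted p = 0.00456). Lama4, the laminin chain of endothelial basement membrane, was listed at 0 in eHB and had 6.67, 1.35 and 12.4 TPM in the cultures, at least 467-fold higher. Col15a1 (8.50, adjusted p = 0.00185) and Sparcl1 (8.70, adjusted p = 0.00216) rose as well, and neither was above 0.106 TPM in eHB. Of 11 genes of flow response and vasoregulation 9 were tested, 7 were higher and 1 lower (median 2.44). Nos3, the endothelial nitric oxide synthase, had 165, 183 and 114 TPM in the cultures, against 14.9, 12 and 7.82 TPM in eHB (log2 fold change 3.76 ± 0.14 SE, adjusted p = 0.000792), and the endothelin gene Edn1 rose by 8.30 ± 1.01 SE (adjusted p = 0.00354).

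Lipid handling genes of capillaries rose in part, some of them against no count in eHB. Of 10 genes 9 were tested, 5 were higher and 2 lower (median 5.50). Gpihbp1, which carries lipoprotein lipase to the vessel lumen, had 237, 187 and 147 TPM in the cultures and no count in eHB, at least 1834-fold higher. Fabp4, a fatty acid binding protein, had 153, 59.2 and 99.3 TPM in the cultures and was at least 824-fold higher. The fatty acid transporter gene Cd36 was low, with 0.314, 0.86 and 2.54 TPM in the cultures, at least 48.9-fold higher. All 3 were without a count in the 3 eHB libraries. Genes of interferon signalling and antigen presentation rose as well, with 13 of 17 tested, 9 higher and 1 lower (median 2.53). B2m, the light chain of MHC class I, had 715, 831 and 693 TPM in the cultures, against 92, 35.2 and 44.5 TPM in eHB (log2 fold change 3.83 ± 0.37 SE, adjusted p = 0.00218), and H2-D1, an MHC class I heavy chain whose reads are shared with close relatives, rose by 3.71 ± 0.58 SE (adjusted p = 0.00694). Rsad2, which encodes the antiviral protein viperin, had 6.52, 1.22 and 0.759 TPM in the cultures, against 0, 0.042 and 0 TPM in eHB (adjusted p = 0.00687), with M5 highest. The peptide transporter gene Tap1 fell (log2 fold change -1.86 ± 0.39 SE, adjusted p = 0.0153).

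Regulators of blood formation went both ways. Of 15 genes 14 were tested, 5 were higher and 3 lower (median 1.12), a share near the background. Kit, the receptor for stem cell factor, had 138, 178 and 204 TPM in the cultures, against 41.3, 12.7 and 18.2 TPM in eHB (log2 fold change 3.04 ± 0.50 SE, adjusted p = 0.00796). Runx1, which is needed for the endothelial to hematopoietic transition, had 22, 10.8 and 8.98 TPM in the cultures, against 3.48, 4.83 and 2.49 TPM in eHB (log2 fold change 1.88 ± 0.34 SE, adjusted p = 0.0105). Mecom, a regulator of blood stem cells, had 25.9, 22.9 and 21.3 TPM in the cultures, against 0.253, 1.57 and 3.25 TPM in eHB (log2 fold change 4.16 ± 0.87 SE, adjusted p = 0.0155; adjusted p = 0.062 without FL4). In each of these 3 genes the lowest culture lay above the highest eHB library. Irf8, a factor of myeloid cells, had 12.9, 0.58 and 2.37 TPM in the cultures, against 0.032, 0.021 and 0.021 TPM in eHB (adjusted p = 0.00302), with M5 highest. Gfi1b, a repressor of erythroid and megakaryocyte cells, fell, with 11.9, 3.44 and 0.312 TPM in the cultures, against 36.1, 49.4 and 11.9 TPM in eHB (log2 fold change -3.36 ± 0.82 SE, adjusted p = 0.0235), and its call ended without FL4 (adjusted p = 0.103), without FL10 (0.0565) and without the line block (0.102). Gata1, the master factor of red cells and megakaryocytes, had 33.9, 3.18 and 0.156 TPM in the cultures, against 21.9, 5.74 and 0.212 TPM in eHB and was not called (log2 fold change -0.12 ± 0.40 SE, adjusted p = 0.798): its level followed the line, high in M5 and close to 0 in FL10, at both stages.

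The M5 culture stood apart for transcripts of red cells and platelets. The 6 genes whose within-line difference varied most between lines were Hbb-y, Hbb-bs, Vwf, Stfa2, Hbb-bh1 and Tubb1, and in the M5 culture all 6 were higher than in the other cultures. Embryonic beta globin Hbb-y had 997, 47.9 and 0.634 TPM in the cultures, against 1.26, 0.496 and 0.742 TPM in eHB (log2 fold change 7.41 ± 1.99 SE, adjusted p = 0.0307; adjusted p = 0.123 without FL4), and Hbb-bh1 had 455, 60.05 and 1.8 TPM in the cultures, against 0.674, 0.316 and 0.095 TPM in eHB (log2 fold change 8.45 ± 0.71 SE, adjusted p = 0.00158). The stefin gene Stfa2 was at 87.5 TPM in the M5 culture and listed at 0 in the other 5 libraries. Globin and stefin genes have near-identical copies among which RSEM divides reads. Hba-x, embryonic alpha globin, had 402, 32.8 and 0.447 TPM in the cultures, against 29.1, 0.664 and 0 TPM in eHB (log2 fold change 4.46 ± 0.49 SE, adjusted p = 0.00278; adjusted p = 0.219 without the line block).

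Markers of the red cell series summed to 2220 TPM in the M5 culture, 150.5 TPM in the FL4 culture and 3.54 TPM in the FL10 culture, against 67.7, 7.37 and 3.68 TPM in their eHB. Over the erythroid list, 14 of 19 genes were tested, 7 were higher and 1 lower, but the ranges of the 2 stages stood apart for only 1 of the 14 upward and 1 downward, whereas 36.8% of all tested genes were apart upward and 37.8% downward. The gene apart upward was Hbb-bh1. The gene apart downward was Tfrc, the transferrin receptor of dividing and iron-loading cells, which fell, with 27.8, 21.2 and 21.5 TPM in the cultures, against 132, 167 and 206 TPM in eHB (log2 fold change -2.82 ± 0.25 SE, adjusted p = 0.00183).

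Megakaryocyte markers summed to 1505, 139.9 and 81.2 TPM in the cultures, against 56.4, 81.6 and 17.3 TPM in eHB. Of 13 genes in the longer list 8 were tested, 5 were higher and 0 lower. Pf4, the platelet chemokine, had 994, 20.6 and 14.1 TPM in the cultures, against 12.2, 0.327 and 0.106 TPM in eHB (log2 fold change 6.35 ± 0.19 SE, adjusted p = 0.000789; adjusted p = 0.0608 without the line block). Clec1b, a platelet receptor that liver sinusoidal endothelium also expresses in mice, had 53.2, 17.1 and 6.09 TPM in the cultures and no count in eHB, at least 302-fold higher. Other members of the list rose as well. Itgb3, an integrin chain of platelets and endothelium, had 405, 299 and 341 TPM in the cultures and at most 20.03 TPM in eHB (log2 fold change 5.14 ± 0.61 SE, adjusted p = 0.0034). Gp1bb, a chain of the platelet receptor for Vwf, had 12.8, 13.5 and 20.4 TPM in the cultures and at most 0.063 TPM in eHB (adjusted p = 0.000932). Thbs1, thrombospondin of platelets and endothelium, rose by 8.83 on the log2 scale (adjusted p = 0.00177). Itga2b, which encodes CD41, had 459.5, 110 and 66.2 TPM in the cultures, against 43.1, 74.7 and 16 TPM in eHB and was just short of the threshold (log2 fold change 2.02 ± 0.64 SE, adjusted p = 0.0502), which it passed without FL4 (adjusted p = 0.0206).

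Of the 18 leukocyte genes 8 were tested, 4 were higher and 0 lower. Plek, a substrate of protein kinase C in platelets and leukocytes, had 116, 16.4 and 1.83 TPM in the cultures, against 0.2, 0.158 and 0.074 TPM in eHB (log2 fold change 7.56 ± 0.86 SE, adjusted p = 0.00303). Cd53, a tetraspanin of leukocytes, had 10.6, 21.8 and 18.2 TPM in the cultures, against 0, 0.021 and 0 TPM in eHB (adjusted p = 0.0008). Tyrobp, a signalling adaptor of myeloid cells, had 3.76, 10.1 and 6.77 TPM in the cultures, against 0, 0.675 and 0.106 TPM in eHB (log2 fold change 4.88 ± 0.77 SE, adjusted p = 0.0065). Plek shared the order of lines seen for Pf4 and Clec1b, with M5 highest, whereas Cd53 and Tyrobp were lowest in the M5 culture. No culture overlapped with eHB for Plek, Cd53 and Tyrobp. Since Ptprc was close to 0 in all 6 libraries, the leukocyte marker sum rested on the other markers. The part of blood cells in the values of the unsorted M5 culture was not tested.

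**Figure D5:**
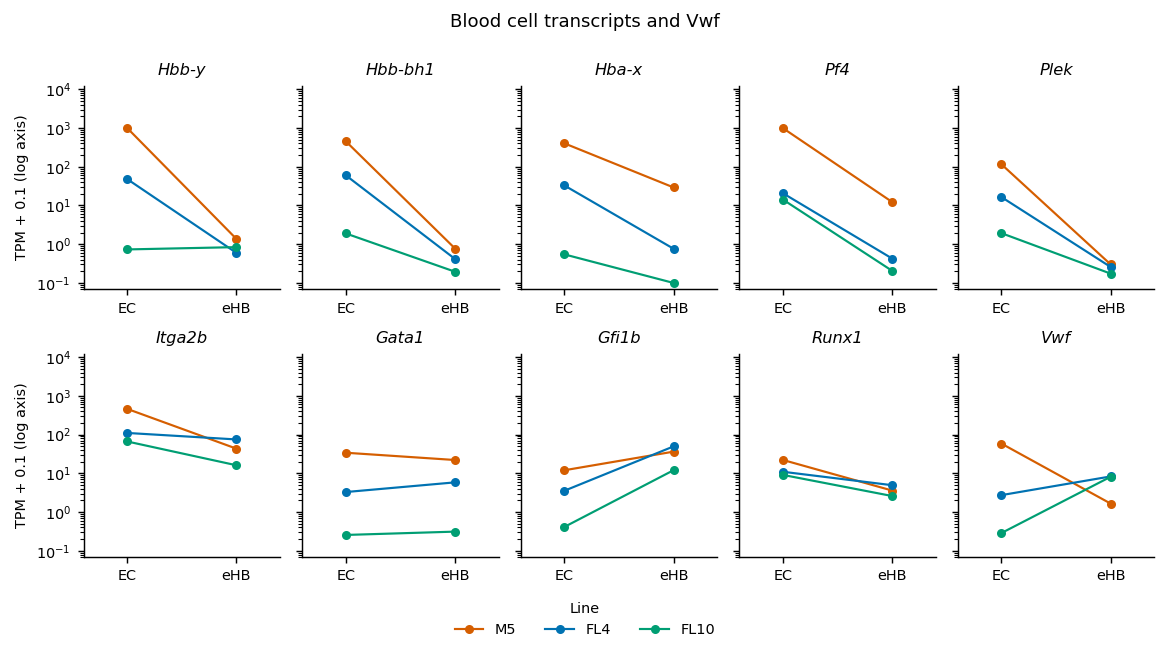
Each panel plots TPM + 0.1 on a log axis for 1 gene, culture (EC) on the left and eHB on the right, with 1 line for each cell line. The globin genes, Pf4 and Plek are highest in the M5 culture and lowest in the FL10 culture, Gata1 keeps its order of lines at both stages, and Vwf rises leftward in M5 but not in FL4 or FL10.

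Further genes were taken by the size of the fitted log2 fold change, 10 in each direction, among called genes with 20 TPM or more and no overlap between stages. A fitted fold against a group without counts depends on the model, so this choice is no ranking, and the lower bounds of some of these genes lie below the measured folds of Esm1, Stab2, Robo4, Ctgf and Dll4. Besides Sox18, Lyve1, Gpihbp1 and Emcn, the choice gave Emp1, a membrane protein of the PMP22 family (225, 65.8 and 352 TPM in the cultures), the pregnancy-specific glycoprotein gene Psg22 (85.8, 84.3 and 378 TPM), the aggrecanase gene Adamts5 (19.6, 20.8 and 61.5 TPM), annexin A1, encoded by Anxa1 (43, 118 and 92.1 TPM), the homeobox gene Hoxb5 (15.1, 32.5 and 58.4 TPM) and the caveolar protein gene Sdpr (7.72, 10.5 and 76.6 TPM). None of these 6 had a count in eHB, so they were at least 6678-fold, 4015-fold, 3097-fold, 1634-fold, 1138-fold and 1124-fold higher. Psg22 and Hoxb5 belong to families of similar genes, and Hoxb5 overlaps others of its cluster, so their values are uncertain.

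The 10 genes taken for their falls were all but absent from the cultures. Lim2, a lens membrane protein, had 86.4, 114 and 156 TPM in eHB and no count in the cultures, at least 1679-fold lower. Spink4, a protease inhibitor (19.1, 144 and 159 TPM in eHB), was at least 798-fold lower, and the carbonic anhydrase gene Car4 (1.41, 44.9 and 44.5 TPM in eHB) was at least 628-fold lower. A second carbonic anhydrase gene, Car14, had 0.345, 0.238 and 0.094 TPM in the cultures, against 85.4, 114 and 175 TPM in eHB (log2 fold change -9.08 ± 0.52 SE, adjusted p = 0.000894). The placental homeobox gene Esx1 had 0.105, 0.269 and 0.135 TPM in the cultures, against 96, 603 and 481 TPM in eHB (log2 fold change -11.15 ± 0.29 SE, adjusted p = 0.000782), and Bcat1, a branched-chain aminotransferase, had 0, 0.228 and 0.031 TPM in the cultures, against 2.12, 39.7 and 120.5 TPM in eHB (log2 fold change -9.25 ± 0.86 SE, adjusted p = 0.00194). Rec8, a meiotic cohesin, had 0, 0.145 and 0 TPM in the cultures, against 0.579, 64.2 and 5.54 TPM in eHB (log2 fold change -8.80 ± 0.42 SE, adjusted p = 0.000792). For 3 genes the cultures held 1 to 3 counts in all, and no fold is given. Nxf7, of the nuclear RNA export factor family, had 22.5, 270.5 and 307 TPM in eHB. The imprinted gene Phlda2 had 68, 21.6 and 9.65 TPM in eHB, and Dkkl1 had 16.3, 77 and 25.8 TPM in eHB. The eHB level of many of these genes differed by line, with M5 lowest for Nxf7, Spink4, Car4, Esx1, Bcat1, Dkkl1, Lim2, Car14 and Rec8 and highest for Phlda2.

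Of 10 pluripotency genes only 4 were tested, with 2 lower and 2 higher. Lin28a, an RNA-binding protein of progenitors, had 0.188, 0.725 and 0.114 TPM in the cultures, against 33.8, 98.1 and 49.1 TPM in eHB (log2 fold change -7.59 ± 0.38 SE, adjusted p = 0.000814), and Nanog had 0.084, 0.155 and 0.052 TPM in the cultures, against 2.41, 5.24 and 3.41 TPM in eHB (log2 fold change -5.19 ± 0.40 SE, adjusted p = 0.00128). Klf4, which endothelial cells also express, was higher, with 5.04, 6.12 and 12.5 TPM in the cultures, against 0.937, 3.19 and 0.752 TPM in eHB (log2 fold change 2.44 ± 0.72 SE, adjusted p = 0.0407), a call that ended without M5 (adjusted p = 0.102) and without FL10 (0.0903). Esrrb was higher at a low level, with 0.282, 0.725 and 0.333 TPM in the cultures, against 0, 0 and 0.085 TPM in eHB (log2 fold change 3.98 ± 1.26 SE, adjusted p = 0.0454), a call that ended without M5 (adjusted p = 0.0798) and without FL4 (0.122). Pou5f1, which defines pluripotency, was at most 0.095 TPM in eHB and listed at 0 in all 3 cultures.

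Whether induction differed between the tissue-derived and the ES-derived lines was asked for every gene with the interaction term. Of 13761 genes tested, 1 was called, and 17.6% had an unadjusted p under 0.05. The called gene was Dlk1, an imprinted ligand-like gene of progenitor cells (ENSMUSG00000040856, chromosome 12, 109452823 to 109463336, plus strand on GRCm38). In the tissue-derived lines it had 3.66, 48.7 and 80.3 TPM in the cultures, against 0.632, 8.26 and 11 TPM in eHB (log2 fold change 2.67 ± 0.13 SE, adjusted p = 0.000792; adjusted p = 0.117 without the line block). In the ES-derived lines it had 1.17 and 2.17 TPM in the cultures, against 23.1 and 70.7 TPM in eHB (-4.56 ± 0.27 SE, adjusted p = 0.00833). It rose within each of the 3 tissue-derived lines and fell within both ES-derived lines, with an interaction log2 fold change of 7.28 ± 0.29 SE (adjusted p = 0.0165). The call ended with each of the 5 lines left out in turn: the adjusted p of the Dlk1 interaction was 0.0832 without M5, 0.273 without FL4, 0.237 without FL10, 0.0645 without RB3.6.5 and 0.153 without RB4.6.9.

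The endothelial genes had no called interaction, and their values in the ES-derived lines can be set beside those above. Cdh5 was at 2924 and 2554 TPM in the ES-derived cultures, against 6.72 and 0.331 TPM in their eHB, and Sox18 at 659.6 and 655 TPM in the cultures, against 0.102 and 0.066 TPM in eHB. Levels were not alike for every gene. Cd34 had 4.52, 11.8 and 45.3 TPM in the tissue-derived cultures, against 741.7 and 696.5 TPM in the ES-derived cultures. Cldn5 had 17.1, 5.12 and 4.36 TPM, against 1043 and 236 TPM. Egfl7 went the other way, at 2353, 2365 and 2254 TPM, against 1243 and 1321 TPM. Of the endothelial receptor list 16 of 20 were higher in the ES-derived cultures than in their eHB, and of the cell cycle list 29 of 30 were lower. With 3 and 2 lines, a gene that missed the threshold is not shown to respond alike.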

How the data were processed

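Both deposited tables, one of expected counts and one of TPM, were used for 20314 rows, and no column was without a sample. Expected counts per gene were estimated by the authors with RSEM 1.2.3 and Bowtie 0.12.9 on mm10, after CASAVA 1.8.2, per the submitters' processing notes. The deposited TPM values are labelled renormalized, by a step that is not given in the sources used here, as is the strand setting. Libraries were TruSeq RNA v2, per the labels' protocols. Expected counts were rounded, filtered with filterByExpr and tested with edgeR 4.0.16 (R 4.3.3; TMM, robust quasi-likelihood fit), with the line as a block. Stages of one line are the same cell line, and their deviations from the stage means correlated with r = 0.372 (M5), 0.293 (FL4) and 0.364 (FL10) over genes. SE is the log2 fold change divided by the root of F. The interaction was fitted on 10 libraries. Alternatives used limma 3.58.1 and DESeq2 1.42.0. The stage and interaction fits of edgeR, DESeq2 and limma, each at its default setting, were run on simulated data with known changes. The other alternatives were not. A fold against a group without counts uses a floor of 3 counts over that group, for counting error only. Named genes were the 10 largest fitted changes each way (20 TPM or more, no overlap), up to 5 called members of a list in its main direction and 2 in the other, genes called in the interaction, and the 6 genes of largest SD over lines. The members and lists were chosen with earlier results of these data known. Positions are from the GENCODE annotation of GRCm38. Some items of the tables are not reported here.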

Additional observations from a re-analysis of the deposited data

Results flagged for a closer look

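Dlk1 was the 1 gene whose change differed between the tissue-derived and the ES-derived lines by the interaction test, with an interaction log2 fold change of 7.28 (adjusted p = 0.0165 in edgeR's quasi-likelihood test). It was higher in 3 of 3 tissue-derived cultures than in their eHB and lower in 2 of 2 ES-derived cultures. Without the line block the adjusted p of the Dlk1 interaction was 0.153, and in limma on log2(TPM + 1) it was 0.0671. Origin, eHB medium and the line itself cannot be told apart in this difference.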

How the results depend on the processing

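The stage counts stayed within 1.5 times of 4367 higher and 4301 lower under every alternative run except the test against a 2-fold change, which called 2332 higher and 2046 lower. Leaving out 1 line gave 3172 to 4453 higher and 3097 to 4393 lower. Without the replicate block, which ignores the pairing by line, 4243 were higher and 4255 lower. Scaling moved the median of all genes by at most 0.029. For the interaction, the 1 higher call became 0 without the replicate block and in limma, 744 in DESeq2, and 0 to 1 with 1 line left out, where the 1 call was Id3 (without M5) and not Dlk1; DESeq2 called 641 lower, against 0. The cause was not tested. At an unadjusted p under 0.05, edgeR had 2421 interaction genes.

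Of 149 named genes called, 122 kept the call under every alternative that gave a value, 27 lost it in at least 1, and 0 changed direction. Signs turned for 3 uncalled genes. Vwf was 1.81 without the replicate block, 0.0897 in limma with or without the filter, and -3.20 to 1.76 with 1 line left out. Gata1 was 0.44 without the block and -0.73 to 0.36 with 1 line left out, and Nr4a1 was -0.76 to 0.035 with 1 line left out. Genes listed at 0 in eHB have only a lower bound, set by a floor of 3 counts, and genes with few counts have wide errors. With 3 lines, 2 of them from fetal liver, p-values of the blocked fit reflect how the within-line change varied between these lines. They also rest on an estimate of that spread shared across the tested genes. The lines were not repeated.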
